A study of Mus musculus with 24 samples.

Results

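The insulin-like growth factor (IGF) genes described here are the 2 ligands Igf1 and Igf2, the receptors Igf1r and Igf2r, and the binding proteins Igfbp2, Igfbp3, Igfbp4, Igfbp5, Igfbp6 and Igfbp7. They were chosen by gene symbol, as 10 of the 49705 entries of the expression table, and all 10 were among the 21005 genes tested. RNA was measured in optic vesicle (OV) organoids, aggregates of mouse embryonic stem cells (mESCs) that pass through an eye-field (EF) state. All 24 libraries came from 1 mESC line, Rx-GFP K/I EB5, in which GFP was knocked into the locus of Rax, the homeobox gene that marks the eye field, so no group lacked the knock-in. There were 8 groups with 3 biological replicates each. Live cells made up the groups of days 0, 1, 2 and 3, and on day 4 and again on day 5 the sort split them into a GFP-positive and a GFP-negative group.

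Each sample held cells dissociated from 24 pooled organoids, each started from 4500 cells, with Matrigel at 2% from day 1. The labels give a GMEM medium with serum replacement, while the methods of the study name a chemically defined medium for the first organoids. Per the methods of the study, some weakly fluorescent cells fell on the GFP-negative side of the gate, so that population is mixed. The GFP-positive samples spanned moderate to high fluorescence. Rax checked the gate: its RNA stood at 9559 ± 436 normalized counts (SD, n = 3) among GFP-positive cells of day 4, against 974.6 ± 38.4 for GFP-negative cells, and at 8608 ± 463 against 447 ± 60.6 on day 5. In such bulk samples, fewer cells of a type and less RNA per cell cannot be told apart.

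IGF1 and IGF2 are secreted growth factors that signal through IGF1R, a receptor tyrosine kinase that acts on PI3K, Akt and mTOR. IGF2R, also called the mannose 6-phosphate receptor, takes up IGF2 for breakdown and does not pass on a growth signal. The IGF binding proteins hold the ligands outside the cell and can limit or extend their action. Insulin or IGF1 is often added to cultures that make retinal tissue from stem cells, and IGF signalling is known to favour the formation of head and eye tissue in vertebrate embryos.

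Igfbp5 was the 1 member called between the populations. It was called higher in the GFP-positive population on both days, while Igf1 and Igfbp6 had differences of like size on day 5 at low counts that did not pass. A gene was called where its adjusted p was below 0.001 and its log2-fold-change exceeded 1.5 in size, by limma on log2(normalized count + 1) with Benjamini-Hochberg adjustment over all genes tested. Igf2 rose in both populations between day 3 and day 4, Igf1r rose between day 0 and day 3, and Igf2r and Igfbp2 were called in no comparison.

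Igfbp2 and Igfbp5 are neighbours on chromosome 1. In mm10, the build of all gene positions here, Igfbp2 (ENSMUSG00000039323) lies on the plus strand at chr1:72824503-72852474 and Igfbp5 (ENSMUSG00000026185) on the minus strand at chr1:72857932-72874884, so that their 3′ ends face each other across 5457 bp. The 250 bases upstream of a RefSeq start (GRCm38.p6) are shown for these neighbours and for Igfbp4, the other binding protein that was called in a comparison. Each is written 5′ to 3′ on the strand of its gene, with a searched motif in capitals. The windows are chr1:72874866-72875115 (minus strand) for Igfbp5, chr1:72824230-72824479 (plus strand) for the first of 2 Igfbp2 starts, and chr11:99040994-99041243 (plus strand) for Igfbp4.
Igfbp5: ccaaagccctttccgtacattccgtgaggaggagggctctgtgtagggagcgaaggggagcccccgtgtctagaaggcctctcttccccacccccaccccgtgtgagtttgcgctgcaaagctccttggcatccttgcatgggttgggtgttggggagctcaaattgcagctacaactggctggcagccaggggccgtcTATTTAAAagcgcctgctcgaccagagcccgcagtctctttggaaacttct
Igfbp2: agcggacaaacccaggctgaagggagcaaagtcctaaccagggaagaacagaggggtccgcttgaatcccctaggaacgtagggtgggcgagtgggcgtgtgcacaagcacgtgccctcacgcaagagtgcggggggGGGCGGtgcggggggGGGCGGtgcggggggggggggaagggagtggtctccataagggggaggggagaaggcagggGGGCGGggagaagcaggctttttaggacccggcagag
Igfbp4: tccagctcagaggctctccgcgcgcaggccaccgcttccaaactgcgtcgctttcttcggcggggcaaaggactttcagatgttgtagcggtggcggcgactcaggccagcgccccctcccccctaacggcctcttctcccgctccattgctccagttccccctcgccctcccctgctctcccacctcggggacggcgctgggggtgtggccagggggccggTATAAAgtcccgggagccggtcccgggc
The motifs searched on both strands were TAATTA, a core bound by many homeodomain proteins, TATAAA, known from core promoters, and GGGCGG, known as the GC box. Among 32851 RefSeq windows of the same length, TAATTA stood in 4.84%, TATAAA in 12.37% and GGGCGG in 32.74%. The Igfbp2 window held GGGCGG 3 times, the Igfbp4 window held TATAAA once with its first base at position -28, and the Igfbp5 window held none of these letters. The letters TATTTAAA, which were added to the search after the Igfbp5 sequence was seen, begin at position -51 there and stood in 1.71% of all windows. Positions count back from -1, the base before the RefSeq start, which for Igfbp5 lies slightly inside the GENCODE gene. Such matches describe letters and not bound sites.

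Library totals lay between 39849111 and 51587535 normalized counts. Replicates correlated at a Spearman rho of 0.924 to 0.948 over genes. Day 0 replicate 1 stood apart from the other day 0 libraries (rho 0.924 and 0.925, against 0.938 between the others), and day 4 GFP-negative replicate 3 from its group (0.930 and 0.932, against 0.947). Where leaving out either library moved a difference given in the text by over 1.5 times, or changed its sign or call, the value without it is given as well. The 5 eye-field markers were all called higher in GFP-positive cells on both days, where 0.328% (day 4) and 0.4% (day 5) of all genes were. The 7 markers of pluripotent cells were all called lower, where 3.63% and 4.61% of all genes were. The study had already found the 5 eye-field markers, and Nanog, Pou5f1 and Dppa5a among the pluripotent ones, to change in these same libraries. These counts therefore describe the sort and are no independent check.

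**Figure D1:**
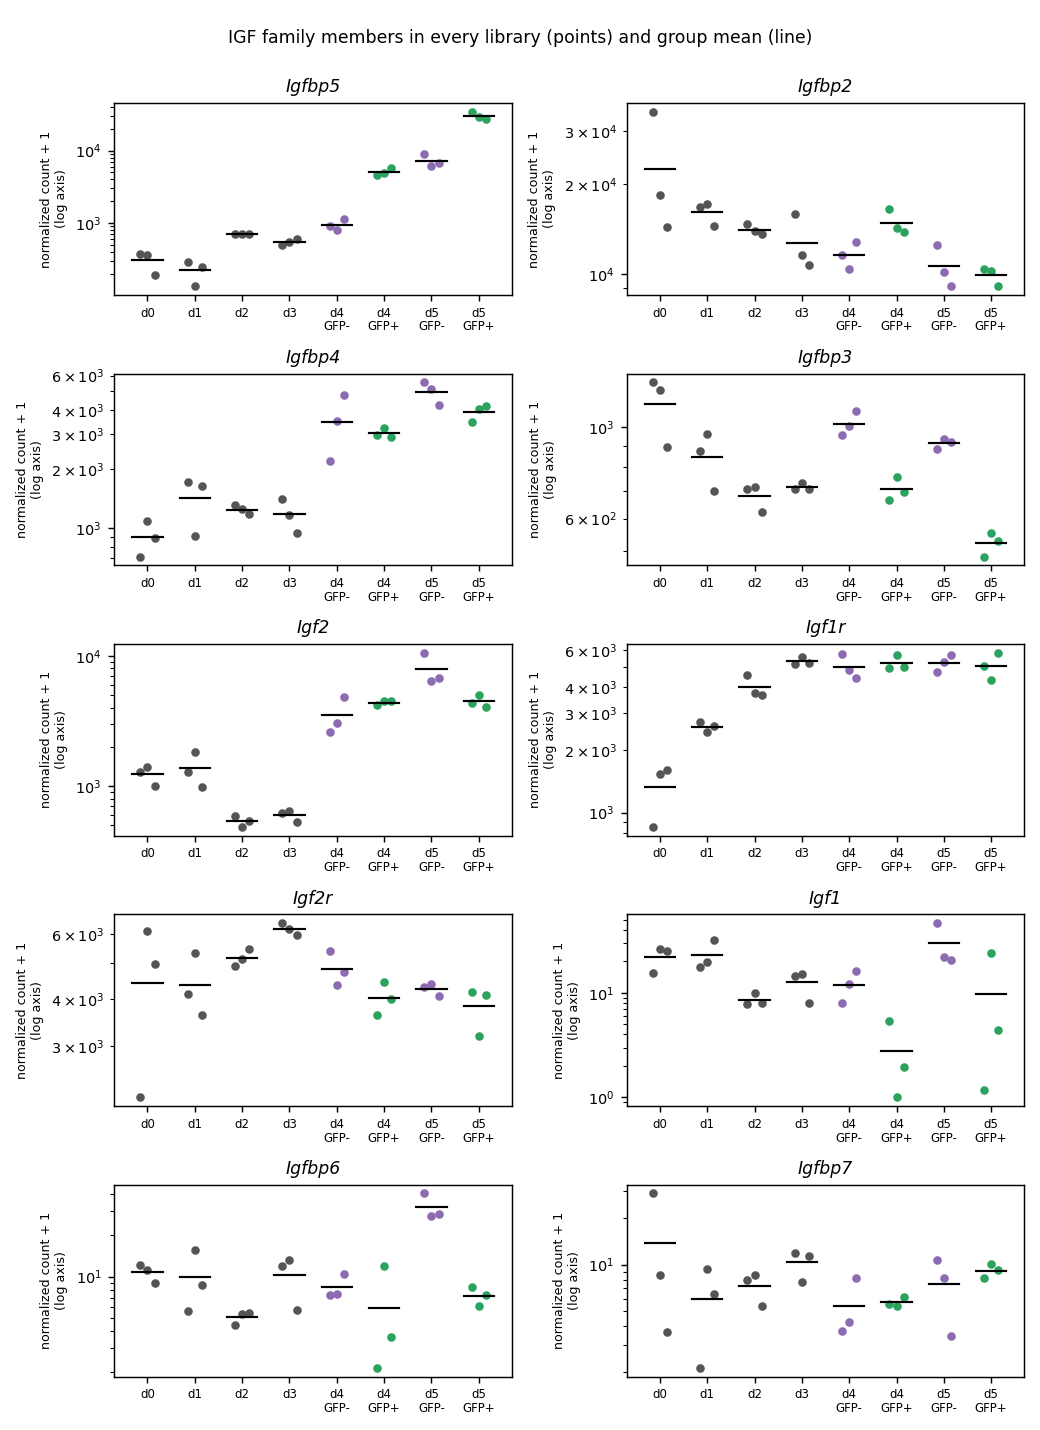
Normalized count plus 1 of the 10 members on a log axis, for the 8 groups from day 0 (d0) to day 5, with 1 point for each of 3 libraries and a line at the group mean. Igfbp5 separates the gates on both days and reaches 27058 to 34080 in day 5 GFP-positive cells, whereas Igf1, Igfbp6 and Igfbp7 stay below 50 throughout.

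Among the ligands, Igf2 was the one with appreciable RNA. Igf2 lies on chromosome 7 at 142650766 to 142666816 (minus strand). It was 1286, 1399 and 1003 normalized counts in the day 0 replicates and 1286, 1837 and 976 on day 1. It was 588, 484 and 542 on day 2 and 622, 646 and 529 on day 3. All libraries of days 2 and 3 thus lay below all those of days 0 and 1, and the day 2 against day 1 difference was -1.30 ± 0.23 (log2-fold-change ± SE, adjusted p = 0.000371 by limma), short of the fold threshold. Without day 1 replicate 3 it was -1.52 (adjusted p = 0.000199 by limma) and passed it.

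On day 4 Igf2 was higher in both populations than in any library before the sort. The GFP-negative replicates held 2600, 3048 and 4864 normalized counts, and the GFP-positive replicates 4189, 4465 and 4465. Against day 3, the log2-fold-change was 2.87 ± 0.23 in GFP-positive cells (adjusted p = 1.763e-09 by limma) and 2.50 ± 0.23 in GFP-negative cells (adjusted p = 9.57e-08 by limma), and both were called. These comparisons share their day 3 libraries. Without day 4 GFP-negative replicate 3, the highest of its group, the latter was 2.24 and was still called.

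The populations overlapped for Igf2 on day 4 through GFP-negative replicate 3 alone, and were apart on day 5. The day 5 GFP-negative replicates held 10561, 6414 and 6737 normalized counts and the GFP-positive replicates 4321, 5029 and 4023, so that every GFP-negative library was above every GFP-positive library. The gate difference was 0.37 ± 0.23 on day 4 (adjusted p = 0.337 by limma) and -0.79 ± 0.23 on day 5 (adjusted p = 0.0177 by limma), and neither was called. Without day 4 GFP-negative replicate 3, all day 4 GFP-positive libraries lay above the GFP-negative ones, and the difference was 0.63 (adjusted p = 0.0676 by limma). Without GFP-negative replicate 1, the lowest, it was 0.18 (adjusted p = 0.729 by limma). The change of the gate difference from day 4 to day 5 was -1.17 ± 0.32 (adjusted p = 0.0881 by limma), which did not pass. Without GFP-negative replicate 3 of day 4 it was -1.43 (adjusted p = 0.0242 by limma) and was still short of a call. For this change limma called 0 members, with 1 at an unadjusted p under 0.05, where 0.109% of all genes were called. Within populations, Igf2 differed by 1.19 ± 0.23 from day 4 to day 5 in GFP-negative cells (adjusted p = 0.00129 by limma, or 1.45 without day 4 replicate 3) and by 0.02 ± 0.23 in GFP-positive cells (adjusted p = 0.988 by limma).

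Markers of other cell types were also higher in day 5 GFP-negative cells, where Igf2 was higher. The summed level of 7 endoderm markers was 3495 to 4608 normalized counts in these libraries and 180 to 335 in GFP-positive libraries, where Afp and Apoa1 were under 10 in every library. The sum of 7 mesoderm markers was 4463 to 7599 against 662 to 815, with Mixl1 and Mesp1 under 10 in every GFP-positive library. The 6 markers of surface ectoderm and neural crest summed to 8297 to 12644 against 3131 to 3383, with none under 10 in every library. Over time this sum did not rise with Igf2, as it was 21548 to 24387 on day 3, when Igf2 was 529 to 646. The sums of all these lists differed on day 4 too, when Igf2 was not higher in GFP-negative cells. They were 2070 to 3420 against 106 to 271 for endoderm and 4125 to 7363 against 470 to 1048 for mesoderm. For surface ectoderm and neural crest they were 10793 to 14595 against 5043 to 5631. The part of these cells in the Igf2 levels was not tested. Igf2 also overlaps Igf2os, its antisense RNA, and the strand used in counting is not given in the sources used here. Reads from sequence that the pair shares therefore cannot be told apart.

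Igf1 (chromosome 10, 87858265 to 87937042, plus strand) was near the lower limit of the measurement. Its lowest group mean was 1.76 normalized counts (day 4 GFP-positive) and its highest 28.8 (day 5 GFP-negative). The day 4 GFP-positive replicates held 4.32, 0 and 0.949, below the GFP-negative values of 6.93, 11.04 and 15.03. The day 5 GFP-positive replicates held 0.172, 22.9 and 3.38 against 45.6, 21.1 and 19.7, and the groups overlapped through replicate 2. The gate difference was -2.40 ± 0.74 on day 4 (adjusted p = 0.0294 by limma) and -2.48 ± 0.74 on day 5 (adjusted p = 0.0236 by limma), and neither was called. Without day 5 GFP-positive replicate 2, the day 5 difference was -3.61 (adjusted p = 0.000312 by limma), which met both thresholds, and without replicate 1, the lowest, it was -1.44 (adjusted p = 0.189 by limma). Quantile normalization gave -1.68 (adjusted p = 0.12 by limma), and a pseudocount of 5 gave -1.26 on day 4 and -1.58 on day 5.

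Igf1r, the signalling receptor, rose before the eye field appeared and differed little after it. Igf1r lies on chromosome 7 at 67952827 to 68233668 (plus strand). Its replicates were 851, 1525 and 1607 normalized counts on day 0, 2734, 2429 and 2595 on day 1, 4557, 3729 and 3669 on day 2, and 5158, 5593 and 5228 on day 3. Each day lay wholly above the day before, yet no single step of Igf1r was called. Between days 0 and 1 limma called 0 of the 10 members, with 3 at an unadjusted p under 0.05, where 0.738% of all genes were called. Between days 2 and 3 it called 0, with 1 at an unadjusted p under 0.05, where 1% of all genes were. The rise from day 0 to day 3 was 2.06 ± 0.18 (adjusted p = 6.407e-09 by limma), and 1.77 without day 0 replicate 1, the lowest library. It was the 1 member called between these days, of 10, where 5.91% of all genes tested were called higher and 12% in either direction. The call was lost when only the libraries of these days were fitted. From day 3 on, Igf1r group means lay between 4996 and 5326, and neighbouring groups in that order overlapped. The 95% interval of its gate difference was -0.30 to 0.43 on day 4 and -0.42 to 0.31 on day 5.

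Igf2r, which clears IGF2, was called in no comparison. Igf2r lies on chromosome 17 at 12682406 to 12769664 (minus strand). Its group means ran from 3828 ± 552 normalized counts in day 5 GFP-positive cells to 6177 ± 232 on day 3. The highest group was day 3, with 6409, 6177 and 5944 in its replicates, above every library of day 2. Day 4 GFP-positive cells lay below all day 3 libraries, by -0.62 ± 0.24 (adjusted p = 0.0430 by limma), which was not called. The difference between day 3 and day 0 was 0.61 ± 0.24 (adjusted p = 0.0416 by limma) and was 0.17 without day 0 replicate 1, where Igf2r was 2181 against 6085 and 4982 in the other day 0 libraries. The gate difference was -0.26 ± 0.24 on day 4 (adjusted p = 0.563 by limma) and -0.17 ± 0.24 on day 5 (adjusted p = 0.735 by limma, or -0.044 without GFP-positive replicate 2), and the populations overlapped on both days. Igf2r overlaps the antisense RNA Airn, so reads from any sequence these genes share cannot be told apart either.

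Igfbp5, a binding protein known for its affinity to extracellular matrix, was called at 4 steps of the time course, more than any other member. Its replicates were 372, 364 and 191 normalized counts on day 0 and 293, 134 and 246 on day 1, and these groups overlapped. They were 701, 707 and 703 on day 2 and 501, 543 and 599 on day 3, above all libraries of days 0 and 1. The rise from day 1 to day 2 was 1.72 ± 0.25 (adjusted p = 5.394e-05 by limma), where 0.943% of genes were called higher. The call rested on day 1 replicate 2, the lowest library, without which the log2-fold-change was 1.39.

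On day 4 Igfbp5 was 4544, 4876 and 5669 normalized counts in the GFP-positive replicates and 902, 800 and 1150 in the GFP-negative replicates. On day 5 it was 34079.7, 29014 and 27058 in GFP-positive and 8929, 6029 and 6630 in GFP-negative cells. No library of 1 population reached the range of the other on either day, and day 5 GFP-negative cells lay above day 4 GFP-positive cells. In the order of all 8 group means, only days 1 and 0, the lowest neighbours, overlapped. The mean in day 5 GFP-positive cells was 97.3 times that of day 0 and 54.9 times that of day 3.

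The gate difference of Igfbp5 was 2.41 ± 0.25 on day 4 (adjusted p = 3.529e-07 by limma) and 2.08 ± 0.25 on day 5 (adjusted p = 2.151e-06 by limma). In linear terms, GFP-positive means were 5.29 and 4.18 times GFP-negative means. Igfbp5 was thus 1 of 10 members called higher in GFP-positive cells on day 4 and on day 5, where 0.328% and 0.4% of all genes were. In the opposite direction limma called 0 members on either day, where 3.63% and 4.61% of all genes were called. The median log2-fold-change of the members was -0.03 and -0.26, against 0.007 and -0.002 over all genes. At an unadjusted p under 0.05, 3 members differed in either direction on day 4 and 5 on day 5. The change of the Igfbp5 gate difference between the days was -0.34 ± 0.35 (95% interval -1.07 to 0.39, adjusted p = 0.868 by limma). It was -0.17 without day 5 GFP-negative replicate 1 and -0.22 without day 4 GFP-negative replicate 2. Other scalings of the libraries left the gate difference at 2.41 to 2.45 on day 4 and 1.98 to 2.03 on day 5, although quantile normalization moved the median of all genes by 0.12 and 0.18.

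Over time, Igfbp5 rose in both populations, although GFP-negative cells were called only at the step to day 5. Against day 3, day 4 GFP-positive cells had a log2-fold-change of 3.19 ± 0.25 (adjusted p = 1.377e-09 by limma). GFP-negative cells had one of 0.78 ± 0.25 (adjusted p = 0.0308 by limma), which was not called and was 0.64 without GFP-negative replicate 3. From day 4 to day 5 it rose by 2.58 ± 0.25 in GFP-positive cells (adjusted p = 4.499e-07 by limma) and by 2.92 ± 0.25 in GFP-negative cells (adjusted p = 1.454e-07 by limma). It was the 1 member called in either of the day 5 against day 4 comparisons, in which 0.595% and 0.762% of genes were called higher. These steps share libraries with the gate comparisons.

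**Figure D2:**
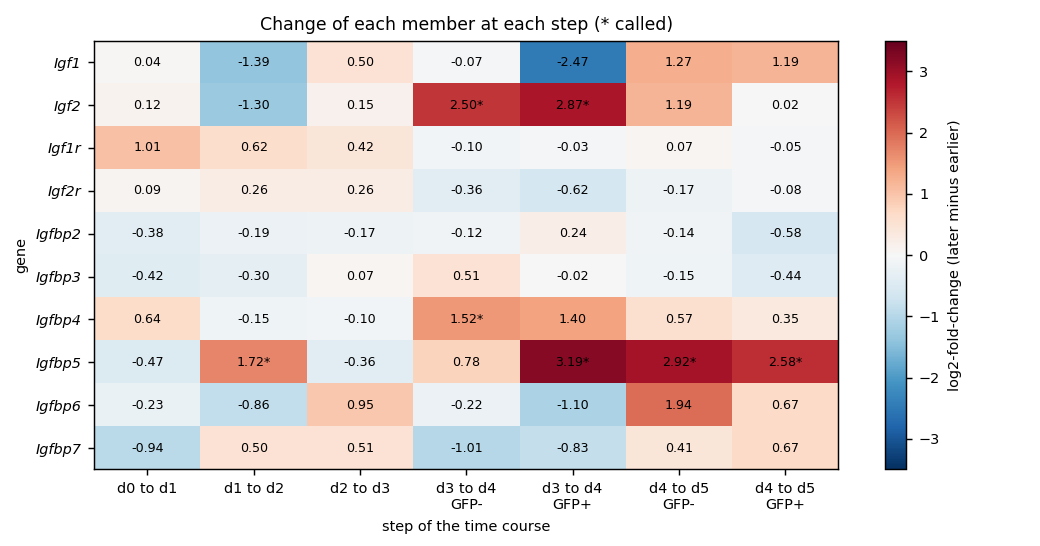
Log2-fold-change (later minus earlier) of each member at each step of the time course, in colour and in numbers, with an asterisk on the called changes. Igfbp5 carries 4 of the 7 asterisks, Igf2 carries 2 on entering day 4, and Igfbp4 carries 1, in GFP-negative cells.

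Igfbp2, the most abundant binding protein per kilobase on day 0, was called in no comparison. Its replicates were 34881, 18319 and 14361 normalized counts on day 0, the widest spread of any group, and 10389, 10213 and 9107 in day 5 GFP-positive cells. The means of these groups were 22520.3 ± 10886 and 9903 ± 695, with 12725 ± 2745 for day 3. Neighbouring groups in the order of means overlapped throughout. The difference between day 3 and day 0 was -0.74 ± 0.22 (adjusted p = 0.00831 by limma) and -0.37 without day 0 replicate 1 (adjusted p = 0.0501 by limma). Igfbp2 was 16561, 14214 and 13811 in day 4 GFP-positive cells, above the GFP-negative values of 11589.9, 10388 and 12794, yet the difference of 0.36 ± 0.22 did not pass (adjusted p = 0.329 by limma). On day 5 the gates differed by -0.09 ± 0.22 (95% interval -0.54 to 0.36), and by 0.035 without day 5 GFP-negative replicate 1.

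Igfbp4 (chromosome 11, 99041244 to 99054392, plus strand) was higher from day 4 on in both populations. Its group means lay between 893 and 1422 normalized counts on days 0 to 3. The day 4 replicates held 2187, 3525 and 4770 in GFP-negative cells and 2981, 3229 and 2922 in GFP-positive cells, all above the earlier libraries. Against day 3 the log2-fold-change was 1.52 ± 0.24 in GFP-negative cells (adjusted p = 9.981e-05 by limma), which was called, and 1.40 ± 0.24 in GFP-positive cells (adjusted p = 7.989e-05 by limma), which missed the fold threshold. The former call was lost without day 3 replicate 3 (1.38), day 4 GFP-negative replicate 2 (1.48) or replicate 3 (1.27), and the latter was gained without day 3 replicate 1 (1.54). With Igf2, Igfbp4 made 2 of 10 members called higher in GFP-negative cells, where 2% of genes were called higher, and Igf2 and Igfbp5 were the 2 in GFP-positive cells, where 3.33% were. Igfbp4 did not pass between the gates, with -0.13 ± 0.24 on day 4 and -0.34 ± 0.24 on day 5 (adjusted p = 0.815 and 0.412 by limma). The day 4 value turned to 0.13 without GFP-negative replicate 3.

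Igfbp3 (chromosome 11, 7206086 to 7213923, minus strand), the main carrier of IGFs in blood, had the opposite sign to Igfbp5 between the gates. Its replicates were 958, 1006 and 1095 normalized counts in day 4 GFP-negative cells and 666, 757 and 697 in GFP-positive cells. On day 5 they were 887, 937 and 923 against 484, 552 and 529. GFP-positive libraries were below all GFP-negative libraries on both days. The difference was -0.53 ± 0.13 on day 4 (adjusted p = 0.00673 by limma) and -0.81 ± 0.13 on day 5 (adjusted p = 9.326e-05 by limma), and both were short of the fold threshold. The gates did not overlap for 4 of 10 members on day 4 and 5 of 10 on day 5, where 38.3% and 36.8% of all genes did not.

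Igfbp3 is also made by endothelial cells, whose markers differed in the same direction between the gates. The 10 endothelium markers summed to 3963 to 4714 normalized counts in day 5 GFP-negative libraries and 1743 to 1985 in GFP-positive libraries, where Cdh5, Tie1 and Cldn5 were under 10 in every library. Emcn was under 10 in every library of all 8 groups. Of the 9 markers tested, 6 were called lower in GFP-positive cells on day 5 and 3 on day 4, where 4.61% and 3.63% of all genes were. The endothelium sum was 4693 to 7239 on day 0, so it is not particular to GFP-negative cells. It was 2942 to 3571 on day 3 and 1365 to 1469 in day 4 GFP-positive cells, where Igfbp3 means were 716 and 707. The pluripotent markers separated the gates as well, at 6697 to 8040 against 513 to 687 on day 5. The part of any of these cells in the Igfbp3 difference was not tested.

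Igfbp6 (chromosome 15, 102144362 to 102149511, plus strand) and Igfbp7 (chromosome 5, 77349240 to 77408041, minus strand) were close to the detection limit. Igfbp6, which prefers IGF2 over IGF1, was 39.6, 26.9 and 27.8 normalized counts in day 5 GFP-negative cells, above every other library. In GFP-positive cells of that day it was 7.34, 5.04 and 6.33. The difference of -2.16 ± 0.50 had an adjusted p of 0.00374 by limma and was not called. With a pseudocount of 5 it passed both thresholds. Igfbp7 had group means between 4.36 and 12.7, and the highest of these rested on 27.9 in day 0 replicate 1, against 7.61 and 2.67 in the others. Igfbp7 entered the test through only 3 libraries with at least 10 normalized counts.

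**Figure D3:**
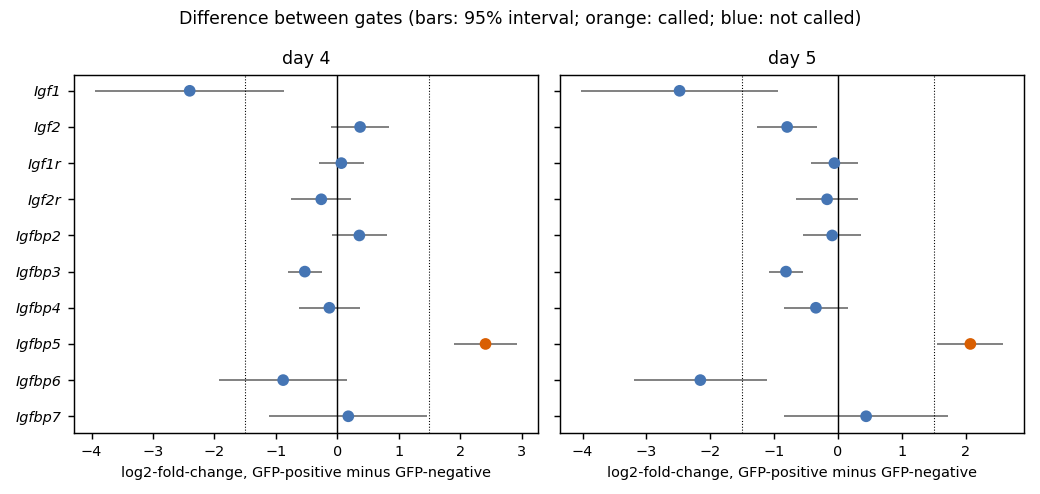
Log2-fold-change of the 10 members, GFP-positive minus GFP-negative, for day 4 (left) and day 5 (right), with bars for the 95% interval and dotted lines at the fold threshold of 1.5. Igfbp5 is the called gene on both days (orange), at 2.41 and 2.08, and the low-count genes Igf1, Igfbp6 and Igfbp7 have the widest intervals.

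Levels of the binding proteins were compared with each other per kilobase, since a longer transcript gives more reads. Both merged exon length and coding length (GENCODE M21) were used, because the index of the authors is described as coding regions. Per kilobase of exon, Igfbp2 made up 94.5% ± 1.81 (SD, n = 3) of the summed level of the 6 binding proteins on day 0. By day 5 it was down to 46.9% ± 1.19 among GFP-positive cells. The Igfbp5 share started at 0.423% ± 0.131 (day 0). Among GFP-positive cells it was 8.60% ± 1.50 on day 4 and 43.7% ± 2.27 on day 5. In GFP-negative cells it was 2.08% ± 0.15 on day 4 and 14.2% ± 1.48 on day 5. By exon length, Igfbp2 (5362 ± 376 per kb) and Igfbp5 (5003 ± 603) overlapped in day 5 GFP-positive cells.

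Coding length gave Igfbp5 a larger share, since 813 of its 6006 exonic bases are coding, against 915 of 1847 for Igfbp2. By coding length Igfbp5 made up 69.5% ± 2.38 of the sum in day 5 GFP-positive cells and Igfbp2 20.4% ± 0.877. In day 5 GFP-negative cells the shares were 32.1% ± 2.90 and 42.1% ± 1.01. Which of the 2 was the more abundant in day 5 GFP-positive cells therefore depended on the length used, while the higher Igfbp5 share in GFP-positive cells held with both. Igfbp4 had its largest mean share in day 5 GFP-negative cells, 13.4% ± 0.922 by exon and 21.8% ± 1.81 by coding length. By coding length this overlapped the share in day 4 GFP-negative cells, 21.5% ± 5.68.

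**Figure D4:**
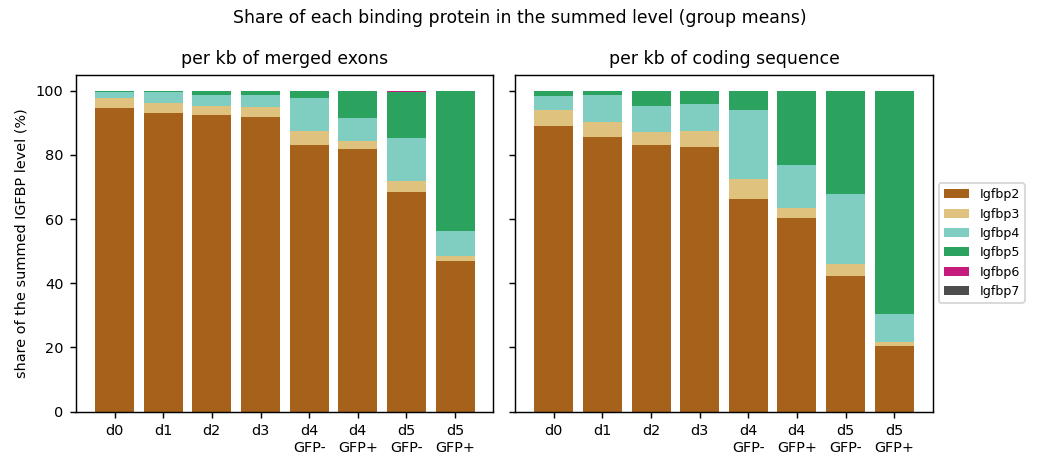
Share (%) of each binding protein in the summed level of the 6 in every group, as stacked bars of group means, per kb of merged exons (left) and per kb of coding sequence (right). The Igfbp5 share in day 5 GFP-positive cells is 43.7% on the left and 69.5% on the right, and Igfbp2 fills most of every bar up to day 4.

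The genes whose pattern over the 24 libraries was most like that of Igfbp5 were Maged1, Dach2, Hspa4l, Akt1 and Rgs2, with Pearson r between 0.961 and 0.971 on the log2 scale. Akt1 encodes a kinase of the IGF pathway. For Igf2 the most similar genes were Sox21, Dcc, Mecom, Ripply3 and Heg1, with r between 0.949 and 0.972. The 24 points fall into 8 groups that share time and culture, so these values describe patterns across groups and not independent samples.

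Genes around the members were taken from lists of the pathway. Of the 6 tested genes for related ligands, receptors and binding proteins, limma called 0 between the gates on either day, where 3.96% (day 4) and 5.01% (day 5) of all genes were called in either direction, with 0 and 4 at an unadjusted p under 0.05. Igfbp1, the neighbour of Igfbp3 on chromosome 11, was low, with 44.2, 21.5 and 37.6 normalized counts in day 5 GFP-negative and 11.8, 5.96 and 9.93 in GFP-positive cells. In day 4 GFP-positive cells it was between 3.41 and 8.22, called higher than on day 3, where it was listed at 0 in each library. Both groups lay below the filter of 10 normalized counts, which other libraries met, so this call rests on few reads. It was 1 of the 6 called higher in that comparison, where 3.33% of all genes were. The insulin gene Ins1 was at 0 in all 24 libraries, and the insulin receptor Insr lay between 660 ± 279 on day 0 and 1519 ± 49.4 on day 3.

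Among 5 proteases of binding proteins and their inhibitors, 2 were called lower in GFP-positive cells on day 4 and 1 on day 5, where 3.63% and 4.61% of all genes were, and 0 higher by limma. Pappa, a protease that cuts IGFBP4 and IGFBP5 and frees the ligand, was 665, 725 and 626 normalized counts in day 4 GFP-negative cells and 96.4, 98.1 and 109 in GFP-positive cells. On day 5 it was 491, 635 and 742 against 68.9, 52.4 and 60.6. The gate difference was -2.72 ± 0.41 on day 4 (adjusted p = 4.684e-05 by limma) and -3.33 ± 0.41 on day 5 (adjusted p = 3.283e-06 by limma). Stc2, which inhibits PAPPA, differed the same way, by -1.58 ± 0.20 on day 4 (called) and -1.49 ± 0.20 on day 5 (just short of the fold threshold). Of 7 endoderm markers, 4 were called lower in GFP-positive cells on day 4 and 5 on day 5, as were 6 and 5 of 7 mesoderm markers, and their part in the Pappa and Stc2 differences was not tested.

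Of 9 receptor adaptors, limma called 0 between the gates on day 4 (4 at an unadjusted p under 0.05), where 3.96% of all genes were called, and 1, Grb10, on day 5, in the direction in which 4.61% of all genes were called. Irs4, a docking protein of the insulin and IGF1 receptors, had 38.2 ± 3.39 normalized counts before differentiation (day 0), 1873 ± 336 by day 3 and 27849.9 ± 2414 in GFP-positive cells of day 4. Against day 3 it rose by 3.91 ± 0.18 in GFP-positive cells (adjusted p = 7.327e-13 by limma) and by 2.57 ± 0.18 in GFP-negative cells (adjusted p = 3.199e-09 by limma). Grb10, an adaptor that restrains these receptors, was 122 ± 47.6 in day 5 GFP-negative and 33.5 ± 4.14 in GFP-positive cells, a difference of -1.78 ± 0.23 (adjusted p = 5.213e-06 by limma). The endoderm, mesoderm and ectoderm markers given for Igf2 had lower sums in the same GFP-positive libraries, and their part in the Grb10 difference was not tested.

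Of 21 genes of PI3K, Akt and mTOR, limma called 0 between the gates on either day, against 3.96% and 5.01% of all genes, with 6 on day 4 and 8 on day 5 at an unadjusted p under 0.05. Their median log2-fold-change was 0.03 and 0.10, against 0.007 and -0.002 over all genes. Pik3r3, a regulatory subunit of PI3K, was called higher in day 4 GFP-positive cells than on day 3 (2.89 ± 0.14, adjusted p = 8.39e-13 by limma). Its gate difference was 1.44 ± 0.14 on day 4 and 1.46 ± 0.14 on day 5, just under the fold threshold, with no overlap of libraries.

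Igf2 is imprinted, that is, read from the copy of 1 parent, and 9 genes of imprinted growth control were examined with it. On day 4, 2 of them were called higher in GFP-positive cells, Mest and Plagl1, where 0.328% of all genes were. On day 5 limma called 0 higher and 1 lower, H19, where 0.4% and 4.61% of all genes were. H19, the non-coding RNA beside Igf2, was 42485, 29872 and 25439 normalized counts in day 5 GFP-negative cells and 5805, 7074 and 6219 in GFP-positive cells. The difference was -2.33 ± 0.22 (adjusted p = 1.034e-07 by limma), against -0.79 for Igf2 in the same libraries. On day 4 it was -1.41 ± 0.22, or -1.12 without GFP-negative replicate 3, short of the fold threshold, where Igf2 stood at 0.37. The endoderm and mesoderm markers given for Igf2 moved with H19 as well, and their part was not tested.

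Igf2os was also called at the entry to day 4. It was higher than on day 3 in GFP-positive cells (2.30 ± 0.26, adjusted p = 2.655e-07 by limma) and in GFP-negative cells (2.04 ± 0.26, adjusted p = 6.591e-06 by limma). As reads from sequence shared with Igf2 cannot be told apart, this rise cannot be separated from that of Igf2. Plagl1, a zinc-finger gene that regulates other imprinted genes, differed by 2.36 ± 0.33 between the gates on day 4 (adjusted p = 1.976e-05 by limma) and by 1.12 ± 0.33 on day 5 (adjusted p = 0.0219 by limma, not called). Mest was 231217 ± 7450.3 normalized counts in day 4 GFP-positive and 75745 ± 8426 in GFP-negative cells, a difference of 1.62 ± 0.17 (adjusted p = 5.317e-07 by limma).

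**Figure D5:**
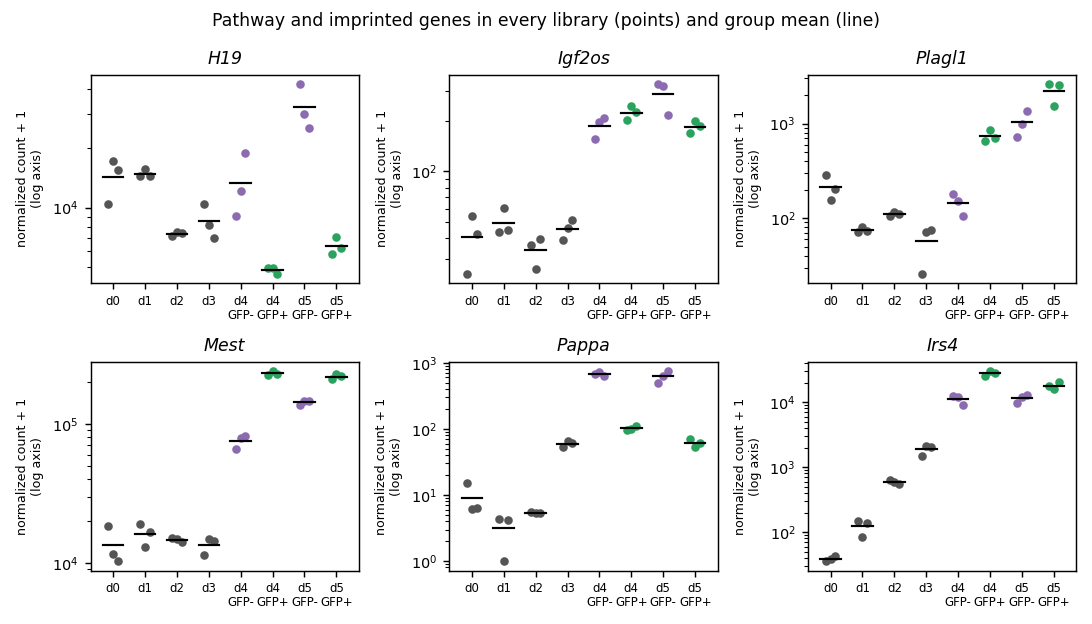
Normalized count plus 1 on a log axis of H19, Igf2os, Plagl1, Mest, Pappa and Irs4 in the 8 groups, with 1 point for each of 3 libraries and a line at the group mean. Pappa (626 to 725 against 96.4 to 109 on day 4) and H19 are higher in GFP-negative cells, and Mest, Plagl1 and Irs4 have higher means in GFP-positive cells.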

How the data were processed

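RNA was sequenced from polyA libraries made with a TruSeq kit. Reads were assigned by the authors with kallisto (version 0.43.1 in the submitters' processing notes, with mm10 as the build) to an Ensembl index of coding sequence and non-coding RNA, and DESeq2 size factors were divided out. The deposited values are therefore a normalized signal per gene (normalized counts), which is not whole: 45.81% to 76.78% of values up to 20 reads lay within 0.1 of a whole multiple of the estimated worth of 1 read. Whole reads were not recovered and count models were not run. Library sizes were estimated at 37000000 to 54600000 assigned reads, so that precision is lowest for genes of few reads. Whether strand was used in counting, and how reads shared by similar transcripts were treated, is not given in the sources used here. The table also holds 9 columns of the authors' own calls (EF-up, EF-down, changes between successive days and stably expressed genes), which were not used.

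The labels gave each sample its group and number. A gene was kept where 3 or more libraries reached 10 normalized counts (21005 genes). Values were taken as log2(value + 1), and 1 model of 8 group means was fitted to all 24 libraries in limma (version 3.58.1, R version 4.3.3), with moderated variances that follow the mean (eBayes, trend). The scale understates changes of low genes. Benjamini-Hochberg adjustment was made within each comparison, and the calls used the thresholds of the study, which are 0.001 for the adjusted p and 1.5 for the size of the log2-fold-change. No share of all genes was computed at an unadjusted p under 0.05, so counts at that level give no reading about the members or lists. Errors of log2-fold-changes are SE with n = 3 per group and errors of levels are SD. The replicates are biological triplicates per the labels. Shares and descriptive values were computed in Python 3.11.15 with pandas 2.3.3.

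The fit was tested on simulated data for the day 5 gate comparison with 21005 genes, where 75 of 100 genes with a log2 change of 2 and 91 of 100 with a change of 3 were called, with 0 other calls. Whether GFP-positive and GFP-negative samples of the same number came from 1 sort is not given in the sources used here. The mean correlation of deviations between same-numbered samples was -0.115 to 0.071 over the comparisons, so the numbers were not treated as pairs, and a block on them was run as an alternative. Besides the 10 members, pathway genes were named where called between the gates or between day 3 and day 4 GFP-positive cells, at most 4 a list, and for likeness the 5 genes with the highest Pearson correlation. Insr, Ins1 and the marker genes were named outside this rule, after their values were seen. The members and lists were chosen with earlier results of these data known. Alternatives were pseudocounts of 0.5 and 5, other filters, quantile and total-count scaling, no trend, a replicate block, only the groups compared, looser thresholds, and leaving out each library. Gene positions and lengths came from GENCODE M21 and upstream sequences from RefSeq.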

Additional observations from a re-analysis of the deposited data

How the results depend on the processing

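Taken singly, most alternatives did not move the count of members called by over 1.5 times. In most comparisons, however, at least 1 alternative did. With only the compared groups fitted, the count fell from 1 to 0 between day 0 and day 3, where Igf1r had an adjusted p of 0.00191 by limma, and from 2 to 1 between day 3 and day 4 GFP-negative cells, where Igfbp4 had 0.0098. The rise of Igfbp5 from day 1 to day 2 was lost as well (adjusted p = 0.00315 by limma). Fewer libraries gave the spread in these fits. With a pseudocount of 5, Igfbp6 joined Igfbp5 in the day 5 gate comparison, making 2. With thresholds of an adjusted p under 0.05 and a log2-fold-change above 1, the count was 1 between days 0 and 1, 2 between days 1 and 2, 2 between day 0 and day 3, 4 between day 3 and day 4 GFP-positive cells, 2 and 3 between the gates on days 4 and 5, and 3 between day 4 and day 5 GFP-negative cells. The share of all genes at both looser thresholds was not computed. An adjusted p under 0.05 alone was met by 10%, 16.6%, 43.6%, 37.9%, 15.7%, 16% and 10.2% of all genes, in the same order. Leaving out libraries gave 0 to 2 between days 1 and 2, 1 to 2 between day 3 and day 4 GFP-negative cells and 1 to 2 between the day 5 gates. Of 110 member differences examined, 27 changed sign in at least 1 alternative, of which 0 were called by limma and none was above 0.50 in size. Between the gates, leaving out libraries gave -0.017 to 0.17 for Igf1r, -0.43 to 0.13 for Igfbp4 and -0.037 to 0.53 for Igfbp7 on day 4, and -0.16 to 0.053 for Igf1r, -0.19 to 0.035 for Igfbp2 and -0.034 to 0.78 for Igfbp7 on day 5. For Igf2 from day 4 to day 5 in GFP-positive cells it gave -0.068 to 0.093. The Igfbp5 gate differences kept their calls in all alternatives, at 2.30 to 2.56 on day 4 and 1.96 to 2.24 on day 5 when libraries were left out. With the replicate number as a block, the Igfbp5 gate differences stayed at 2.41 and 2.08 and no count of members called changed. Total-count scaling moved the median of all genes by 0.10 between day 4 and day 5 GFP-negative cells.

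Depth limits Igf1, Igfbp6 and Igfbp7, whose differences rest on few reads and which the filter of 50 normalized counts removed. With 3 replicates a group, differences below the thresholds cannot be read as absent. The pathway genes without day 4 GFP-negative replicate 3 were added after seeing the data, and of the 8 genes examined, in the comparisons that use this group, 1 call changed: H19 from day 4 to day 5 in GFP-negative cells went from 1.32 (not called) to 1.60 (called).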
